A study of Mus musculus with 45 samples.

Results

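Ptchd1, Shisa2, Ankrd33b, Frmd6, Rnf217, Stil, Zdbf2 and Phf21b are 8 mouse genes with little-described roles in neurons whose mRNA rose strongly during AP firing and was cut back by excitotoxic NMDA signaling. They were taken by symbol from the 54532 genes of the count table because they were called higher after 2 h of bicuculline (Bic) than in untreated neurons, and because their mean level after TTX plus NMDA lay more than 60% below that after 2 h Bic. In all, 1311 genes were called higher after 2 h Bic (4.24% of 30929 tested, edgeR adjusted p under 0.05), 72 of these met the 60% limit, and 37 of the 72 had a mean of at least 1 CPM (reads of a gene relative to all reads of its library) over all libraries. The genes were thus chosen by their levels in control, 2 h Bic and LP TTX/NMDA (defined below), and these values are given as a description without a test.

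RNA was sequenced from hippocampal primary neurons of newborn (P0) C57BL/6N mice, grown in medium with B27 and 1% rat serum, given AraC on day in vitro 3 and treated on day 11, or on day 10 or 11 as the labels have it. Each of 5 culture preparations, numbered 1, 3, 6, 7 and 8, gave 1 library to each of 9 conditions, hence 45 libraries. Control cultures received no treatment, and 3 conditions received the GABA type A receptor antagonist Bic (50 µM), which induces AP firing, for 0.5, 1 or 2 h. In the short protocol (SP), the sodium channel blocker TTX (1 µM), alone or together with bath-applied NMDA (30 µM), was added after 0.5 h of Bic and left on for 0.5 h. In the long protocol (LP), TTX, TTX/NMDA or the glutamate transporter inhibitor TBOA (50 µM), which lets synaptic glutamate spill over, was added after 1 h and left on for 1 h. Bic stayed on during the interventions, so SP conditions were harvested 1 h and LP conditions 2 h after its start. The step from Bic to TTX is called the passive effect, the step from TTX to TTX/NMDA the active effect, and the step from Bic to TTX/NMDA the total effect.

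The 8 proteins have different jobs. Ptchd1 is a membrane protein with a patched domain, encoded on the X chromosome and linked to intellectual disability and autism, and Shisa2 belongs to a family of membrane proteins and is known for holding back Wnt and FGF receptors on their way to the cell surface. Ankrd33b carries ankyrin repeats, and its function is not described in detail. Frmd6 (also called Willin) is a FERM domain protein that acts upstream of the Hippo kinases, and Rnf217 is a RING-between-RING ubiquitin ligase. Stil is required for the duplication of centrioles in dividing cells, which most neurons no longer need. Zdbf2 is an imprinted gene with a DBF-type zinc finger, expressed from the paternal copy, and Phf21b is a PHD finger protein related to Phf21a, a chromatin reader of the LSD1 demethylase complex. Activity-induced genes in neurons are commonly switched on by calcium signals from synaptic NMDA receptors and L-type calcium channels through factors such as CREB, SRF and MEF2, whereas extrasynaptic NMDA receptors are known for shutting CREB off.

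Libraries held 11316580 to 81129276 reads on genes (median 26239614). Levels are given as CPM scaled by TMM factors over all 45 libraries. The neuron markers Rbfox3, Map2, Tubb3, Snap25 and Syn1 summed to between 3754 and 4983 CPM in every library, whereas 5 microglia markers summed to 4.32 to 8.09 CPM. No neuron, excitatory, inhibitory or astrocyte marker was at 0 in any library. In the libraries with TTX/NMDA, cell type markers moved as well. The neuron sum was 3754 to 4041 CPM in LP TTX/NMDA, below 4349 to 4873 CPM after 2 h Bic and 4672 to 4979 CPM in LP TTX without overlap. The 4 excitatory neuron markers (Slc17a7, Camk2a, Neurod6, Prox1) summed to 1046 to 1518 CPM in LP TTX/NMDA and 1468 to 1953 CPM in SP TTX/NMDA, below 2297 to 2755 CPM after 2 h Bic and 2210 to 2817 CPM in SP TTX. Inhibitory neuron markers did not fall, at 1909 to 2863 CPM (median 2538) in LP TTX/NMDA against 1689 to 2375 CPM (median 2195) after 2 h Bic. Astrocyte markers summed to 809 to 1706 CPM in LP TTX/NMDA against 499.7 to 900 CPM after 2 h Bic, and mitochondrial mRNAs took 1.40 to 1.87% of reads there, 0.900 to 1.37% in SP TTX/NMDA and 0.607 to 0.798% after 2 h Bic. In these bulk libraries fewer cells of a type and less RNA per cell cannot be told apart.

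**Figure D1:**
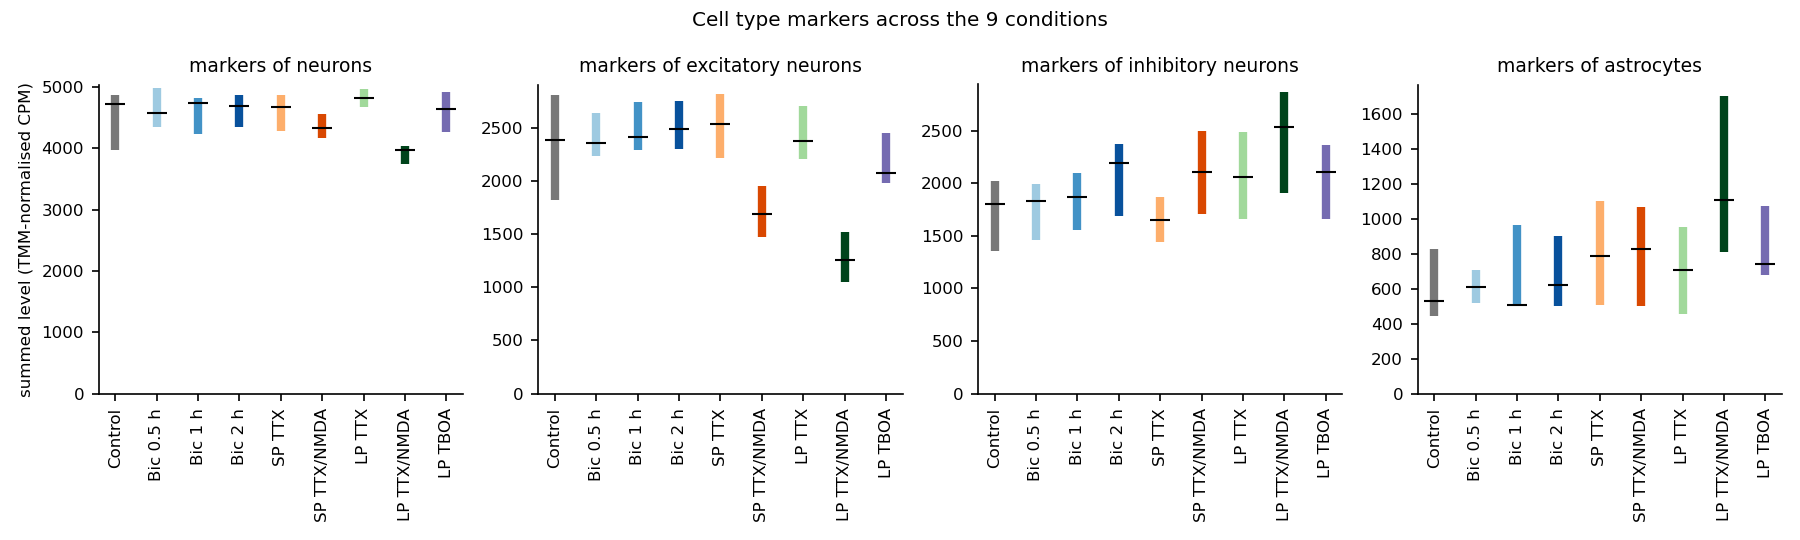
Summed TMM-normalised CPM of the markers of neurons (5 genes), excitatory neurons (4), inhibitory neurons (5) and astrocytes (6) in the 9 conditions. Bars span the 5 libraries and black ticks mark the median. The excitatory sum has its lowest median, 1256 CPM, in LP TTX/NMDA and the next lowest, 1685 CPM, in SP TTX/NMDA.

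The 8 genes are protein-coding and lie on 7 chromosomes (GENCODE M21, GRCm38). Their spans run from 6.35 kb for Shisa2 (chr14:59625308-59631660, plus strand) to 116 kb for Rnf217 (chr10:31493193-31609184, minus strand), against a median of 27.2 kb over 12702 expressed protein-coding genes. Ptchd1 lies at chrX:155573455-155623814 (minus), Ankrd33b at chr15:31291478-31367726 (minus), Frmd6 at chr12:70825514-70902234 (plus), Stil at chr4:115000159-115043196 (plus), Zdbf2 at chr1:63273265-63314576 (plus) and Phf21b at chr15:84785381-84856049 (minus). On the opposite strand, 1 gene model overlaps Ptchd1 and 2 overlap Zdbf2, and the authors counted the sense strand only. Of 2 models that overlap Rnf217 on its own strand, 0 share exon bases with it.

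The promoter windows of the genes were searched because CREB, SRF, MEF2, EGR and NPAS4 sites mark many activity-induced genes. RefSeq windows (GRCm38.p6, 250 bases before to 50 after each start) were matched for 8 of the 8 genes, with 2 starts for Zdbf2, and both strands were searched. The full CREB site (CRE) TGACGTCA stood in 1 gene, Zdbf2, 59 bases upstream of its start, and in 1.79% of 32851 windows. Its core TGACG, which a full CRE also holds on each strand, stood in Zdbf2, Stil (93 and 62 bases upstream) and Ankrd33b (240 bases), and in 20.8% of windows. The EGR site GCGTGGGCG stood in Frmd6 (73 bases upstream) and Rnf217 (75 bases), against 0.612% of windows, and the EGR variant GCGGGGGCG (2.91% of windows) in 0 of the 8. The NPAS4 core TCGTG was found in Rnf217 (16% of windows). The AP-1 site TGACTCA (5.20%), the CArG box bound by SRF (1.63%) and the MEF2 site (0.557%) were found in 0 of the 8 genes. The windows of Ptchd1 and Phf21b lay inside their GENCODE genes, so bases upstream of their GENCODE starts were not searched. The bases upstream of the 5 starts with a CRE core or an EGR site are shown 5′ to 3′ on the gene's strand. Those letters are in capitals. Each stretch ends before the more upstream of the RefSeq and GENCODE starts, and distances count from the RefSeq start. Of the genes shown, only Frmd6 has the same start in both, and Rnf217 has them furthest apart (RefSeq 31609725, GENCODE 31609184).
Zdbf2, chr1:63273019-63273264 (plus): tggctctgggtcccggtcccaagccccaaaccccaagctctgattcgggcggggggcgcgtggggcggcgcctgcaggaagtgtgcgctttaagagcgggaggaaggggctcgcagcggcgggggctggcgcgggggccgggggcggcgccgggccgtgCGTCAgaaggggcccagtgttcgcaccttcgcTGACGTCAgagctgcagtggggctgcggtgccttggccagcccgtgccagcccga
Stil, chr4:114999868-115000117 (plus): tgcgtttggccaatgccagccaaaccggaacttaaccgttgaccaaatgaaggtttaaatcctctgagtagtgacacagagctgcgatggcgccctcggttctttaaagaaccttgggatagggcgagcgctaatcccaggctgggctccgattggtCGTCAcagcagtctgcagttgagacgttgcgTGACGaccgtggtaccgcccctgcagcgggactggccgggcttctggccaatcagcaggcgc
Ankrd33b, chr15:31367760-31368009 (minus): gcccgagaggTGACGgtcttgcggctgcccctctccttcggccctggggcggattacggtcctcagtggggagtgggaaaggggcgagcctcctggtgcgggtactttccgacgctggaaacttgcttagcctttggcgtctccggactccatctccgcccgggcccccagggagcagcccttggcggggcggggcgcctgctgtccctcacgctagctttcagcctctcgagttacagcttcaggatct
Frmd6, chr12:70825264-70825513 (plus): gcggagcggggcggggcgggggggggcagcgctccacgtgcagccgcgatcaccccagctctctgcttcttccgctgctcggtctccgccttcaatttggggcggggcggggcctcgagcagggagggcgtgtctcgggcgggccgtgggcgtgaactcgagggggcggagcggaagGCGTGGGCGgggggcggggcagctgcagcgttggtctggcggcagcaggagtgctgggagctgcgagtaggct
Rnf217, chr10:31609726-31609975 (minus): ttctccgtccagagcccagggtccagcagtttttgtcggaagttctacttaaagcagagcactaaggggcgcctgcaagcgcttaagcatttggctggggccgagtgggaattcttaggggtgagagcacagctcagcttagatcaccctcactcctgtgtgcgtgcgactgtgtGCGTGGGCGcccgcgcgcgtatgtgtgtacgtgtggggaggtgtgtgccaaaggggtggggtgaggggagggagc
A match describes these letters only, and binding was not measured.

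The genes rose late during AP firing. After 0.5 h Bic, the libraries of 0 of the 8 genes were clear of the control range, after 1 h those of 3 (Shisa2, Stil and Zdbf2), and after 2 h those of all 8. These values chose the genes and carry no test. Stil rose most. It measured 0.87, 1.45, 1.30, 1.34 and 1.09 CPM in the controls of preparations 1, 3, 6, 7 and 8 (10 to 67 reads a library) and 13.9, 17.5, 16.4, 13.4 and 12.6 CPM after 2 h Bic, 11.6-fold more, on the log2 scale 3.54 ± 0.14 (SE, n = 5). After 1 h it stood at 3.61 ± 0.61 CPM (SD, n = 5), so most of its rise fell into the second hour.

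The rise of the other 7 was smaller. Ptchd1, with the smallest rise, went from 6.67 ± 1.11 CPM in controls to 18.03 ± 1.07 CPM after 2 h (SD, n = 5), 2.65-fold. Phf21b, the least abundant after Stil at 3.05 ± 1.17 CPM in controls, reached 9.84 ± 1.87 CPM. Between these and Stil stood Ankrd33b (28.5 ± 7.39 to 98.7 ± 17.4 CPM), Shisa2 (8.96 ± 1.69 to 34.4 ± 5.80 CPM), Rnf217 (42.8 ± 4.85 to 173 ± 18.5 CPM), Zdbf2 (65.2 ± 14.2 to 343 ± 32.4 CPM) and Frmd6 (9.33 ± 0.74 to 55.6 ± 7.00 CPM). In each of them the lowest library after 2 h Bic lay above the highest control. Per kb of exon, Zdbf2 had the highest level of the 8 both in controls (5.15 CPM per kb) and after 2 h Bic (27.1 CPM per kb), where Phf21b had the lowest (2.31 CPM per kb).

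Timing differed among the genes. Shisa2 had made 33.99 ± 12.6% of its 2 h rise after 1 h (SD over 5 preparations), whereas Rnf217, at 42.8 CPM in controls and 47.1 CPM after 1 h, had made 3.12 ± 2.31%. Zdbf2 (18.8 ± 2.96%), Stil (18.4 ± 6.83%), Ptchd1 (15.2 ± 8.40%), Ankrd33b (10.7 ± 4.31%), Phf21b (10.5 ± 8.95%) and Frmd6 (8.49 ± 4.92%) lay between. From 1 to 2 h, log2 changes ran from 0.99 ± 0.10 (SE) for Shisa2 to 2.06 ± 0.10 for Frmd6.

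**Figure D2:**
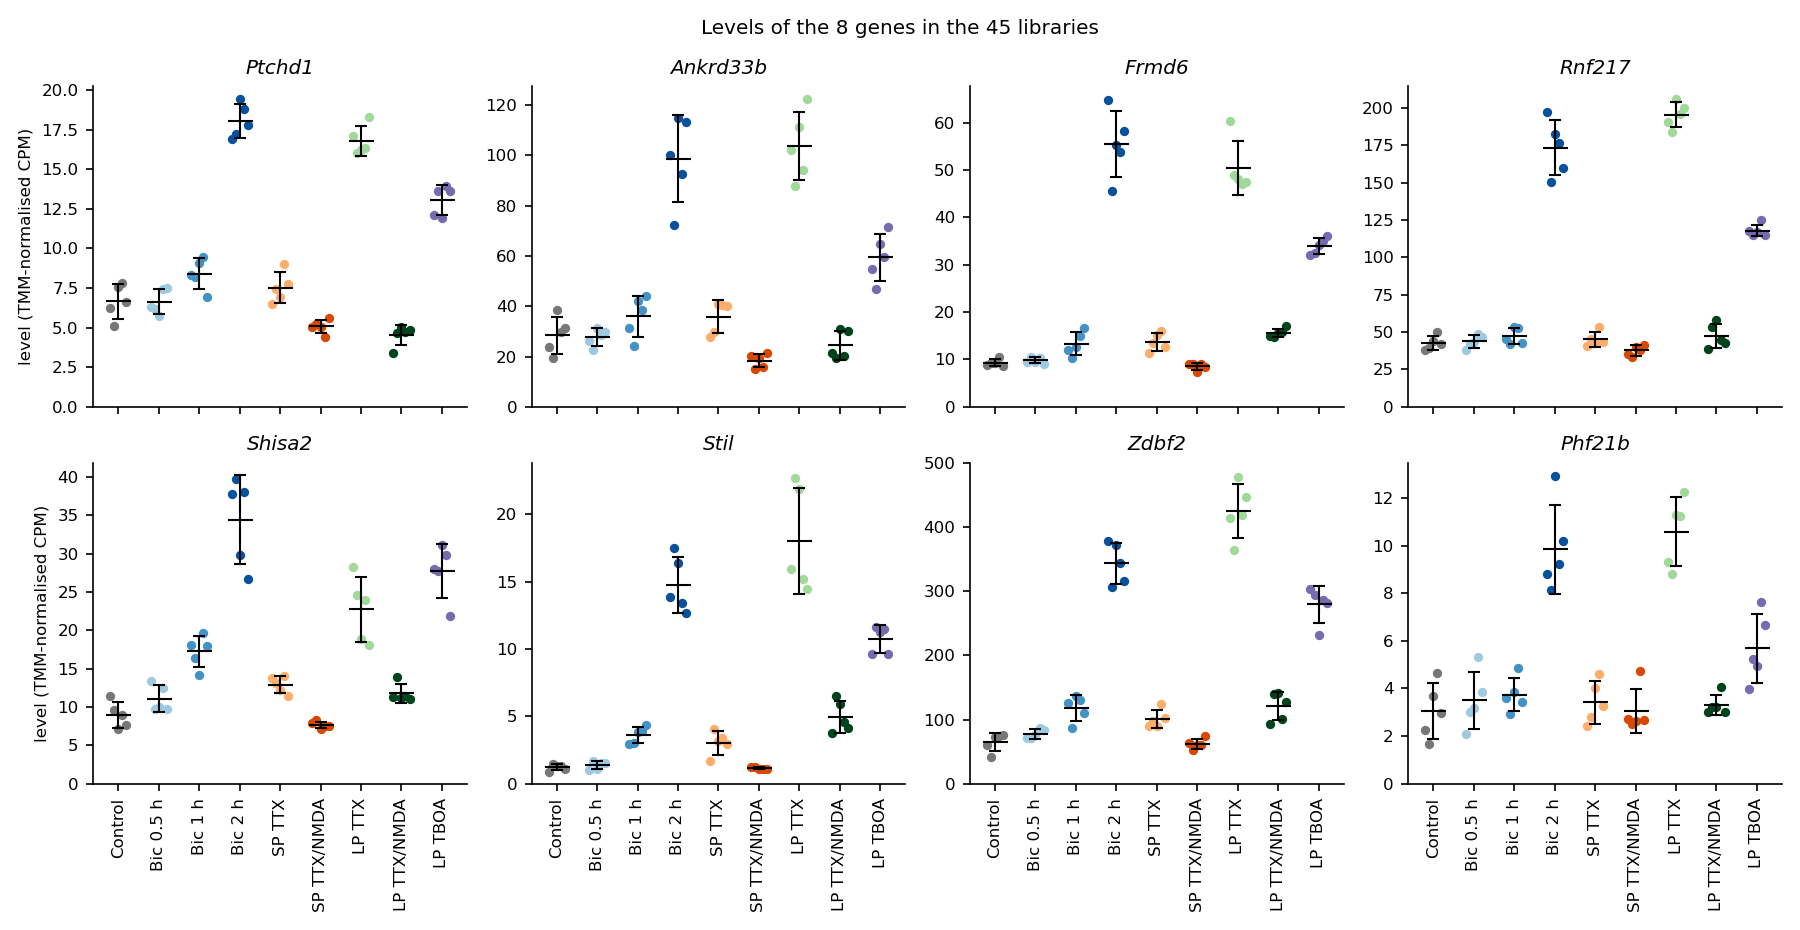
Levels (TMM-normalised CPM, linear axes from 0) of the 8 genes in the 9 conditions, with 1 point for each of the 5 culture preparations and the mean ± SD in black. In every panel all points of 2 h Bic and LP TTX lie above those of LP TTX/NMDA, with Phf21b the only gene whose LP TBOA and LP TTX/NMDA points overlap.

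When NMDA was added with TTX during the second hour, all 8 levels ended far below those after 2 h Bic. This fall chose the genes, and 11.1% of 32243 genes tested were called lower in the same comparison. Ankrd33b measured 100.3, 72.4, 115, 92.4 and 113 CPM after 2 h Bic in preparations 1, 3, 6, 7 and 8, and 21.2, 19.6, 31.04, 20.2 and 30.2 CPM in LP TTX/NMDA. Ptchd1 measured 16.9 to 19.4 CPM after 2 h Bic and 3.40, 4.66, 5.01, 4.74 and 4.84 CPM in LP TTX/NMDA, all below the lowest control library (5.07 CPM). In each of the 8 genes all 5 LP TTX/NMDA libraries lay below all 5 libraries after 2 h Bic. The change of the mean was -75.2% in Ankrd33b, -74.9% in Ptchd1, -72.7% in Rnf217, -71.9% in Frmd6, -66.5% in Phf21b, -66.3% in Stil, -65.8% in Shisa2 and -64.9% in Zdbf2. Within single preparations changes ran from -54.5% (Zdbf2) to -80.5% (Rnf217). Just inside the 60% limit stood Dok6 (-60.01%), Sik2 (-60.2%) and Zfp516 (-60.3%), and just outside it St18 (-59.9%), Btaf1 (-59.5%) and Trib1 (-59.35%).

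The end level was not the same in all genes. Relative to the start of the second hour (1 h Bic), LP TTX/NMDA left Ptchd1 lower in 5 of 5 preparations (log2 -0.92 ± 0.13, SE), and likewise Ankrd33b (-0.58 ± 0.12) and Shisa2 (-0.55 ± 0.10). Rnf217 (-0.01 ± 0.09), Zdbf2 (0.02 ± 0.10), Phf21b (-0.20 ± 0.16) and Frmd6 (0.22 ± 0.11) were within 0.22 of their 1 h level. Of these, Frmd6 lay above that level in 5 of 5 preparations. Stil stood 0.44 ± 0.16 above its 1 h level and was higher in 4 of 5 preparations. Against untreated controls, Stil was still 3.93-fold higher (4.97 ± 1.18 against 1.21 ± 0.23 CPM, SD), Zdbf2 1.84-fold and Frmd6 1.65-fold, without overlap of their libraries, and Ptchd1 was 1.51-fold lower, also without overlap. As a share of the 2 h rise, LP TTX/NMDA held 27.4 ± 3.74% of that of Stil, 20.3 ± 11.1% of that of Zdbf2 and 13.7 ± 2.35% of that of Frmd6, and in Ptchd1 (-19.2 ± 10.1%) it lay below the control level.

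Stopping AP firing alone left most of the induction in place. LP TTX lay close to the 2 h level in Ptchd1, Ankrd33b, Frmd6, Rnf217 and Phf21b (log2 -0.15 to 0.16). The libraries of LP TTX and 2 h Bic overlapped in 8 of the 8 genes. Zdbf2 was higher in LP TTX than after 2 h Bic in 5 of 5 preparations (425 ± 42.4 against 343 ± 32.4 CPM, log2 0.30 ± 0.07), and so was Stil (18.04 ± 3.94 against 14.8 ± 2.08 CPM, 0.27 ± 0.11). Shisa2 was the exception and fell in 5 of 5 preparations, from 34.4 ± 5.80 to 22.8 ± 4.24 CPM, a log2 change of -0.60 ± 0.11. From LP TTX to LP TTX/NMDA, the active effect, its mean changed by -48.3%, and those of the other 7 by -68.8% (Phf21b) to -76.4% (Ankrd33b). These values share the 2 h Bic or LP TTX/NMDA libraries with the choice of the genes and are not tested.

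**Figure D3:**
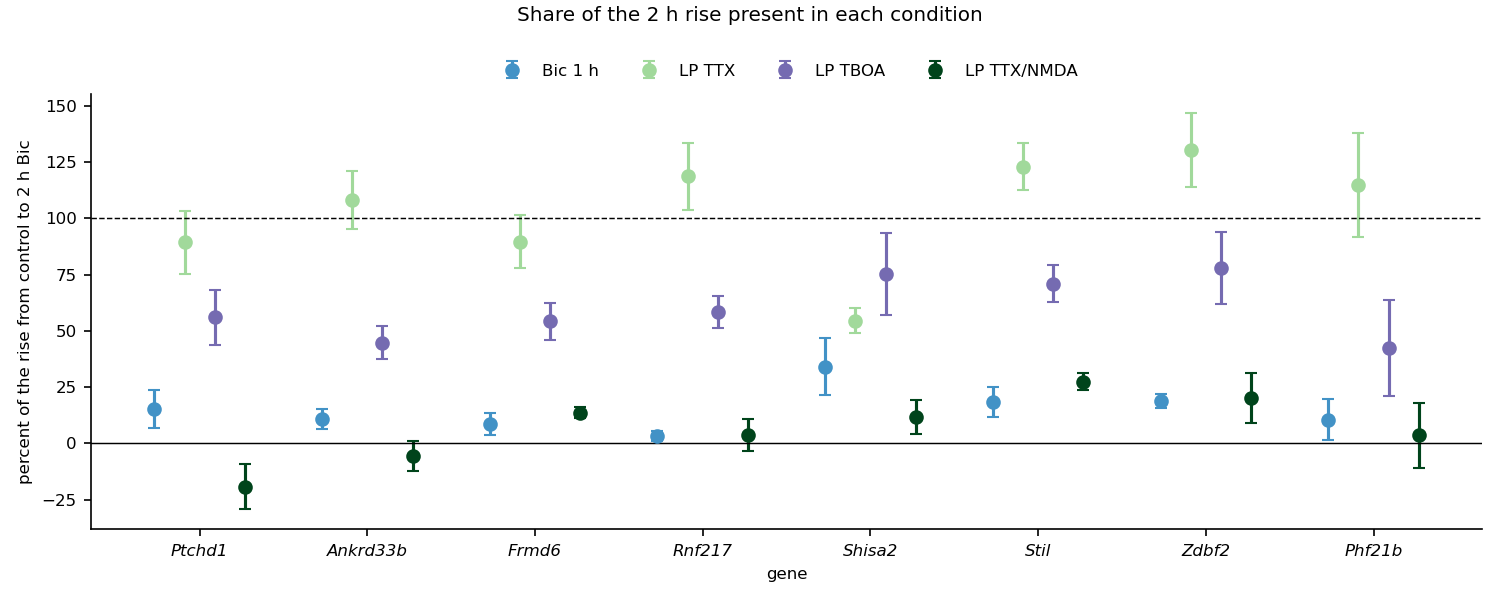
Share of the rise from control to 2 h Bic that was present after 1 h Bic, in LP TTX, in LP TBOA and in LP TTX/NMDA, in percent, as mean ± SD over 5 culture preparations (solid line, control level, dashed line, 2 h Bic level). LP TTX lies between 89.3 and 130% for 7 genes and at 54.4% for Shisa2, LP TBOA between 42.3 and 77.9%, and LP TTX/NMDA between -19.2 and 27.4%.

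The short protocol asked whether NMDA acts within 0.5 h, and used none of the libraries that chose the genes. The 7 comparisons tested below do share libraries with each other, SP TTX/NMDA in 3 of them and 1 h Bic in 4. In the SP active effect (SP TTX/NMDA against SP TTX), 7 of the 8 genes were called lower and 0 higher, where 3.32% of 32229 genes tested were called lower. The median log2 change of the 8 was -0.69, against 0.04 over all genes tested. Stil measured 1.65, 4.09, 3.18, 3.35 and 2.96 CPM in SP TTX of preparations 1, 3, 6, 7 and 8, and 1.25, 1.23, 1.07, 1.08 and 1.08 CPM in SP TTX/NMDA. The NMDA libraries were all lower and lay near the control level of 1.21 CPM. Its log2 change of -1.42 ± 0.19 (SE) was the largest of the 8 (edgeR quasi-likelihood test, Benjamini-Hochberg adjusted p = 4.02e-06).

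Ankrd33b measured 27.6, 29.8, 40.7, 40.5 and 40.3 CPM in SP TTX and 20.2, 15.2, 19.3, 15.8 and 21.2 CPM in SP TTX/NMDA. The ranges did not overlap (log2 -0.97 ± 0.10, edgeR adjusted p = 4.95e-08). Shisa2 stood at 11.4 to 14.1 CPM in SP TTX and at 7.14 to 8.29 CPM with NMDA (-0.76 ± 0.10, adjusted p = 1.77e-06). Zdbf2 fell from 89.9, 98.3, 90.6, 124 and 102 CPM to 63.1, 52.9, 60.1, 60.3 and 74.4 CPM (-0.70 ± 0.08, adjusted p = 4.98e-07). Frmd6 (13.7 ± 1.90 to 8.59 ± 0.75 CPM, -0.68 ± 0.10, adjusted p = 2.54e-05) and Ptchd1 (7.53 ± 0.96 to 5.07 ± 0.44 CPM, -0.57 ± 0.12, adjusted p = 0.00205) also fell without overlap and in 5 of 5 preparations.

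Rnf217 and Phf21b stood apart. Rnf217 fell from 45.03 ± 4.84 to 37.7 ± 3.35 CPM, with overlapping libraries (-0.26 ± 0.08, edgeR adjusted p = 0.0488), and the adjusted p was 0.106 without replicate 1, 0.189 without replicate 3 and 0.239 without replicate 7. With all preparations kept, it was 0.0730 with low counts filtered and 0.104 with all 45 libraries in 1 fit. Phf21b, at 2.40 to 4.59 CPM in SP TTX (68 to 291 reads a library) and 2.49 to 4.72 CPM in SP TTX/NMDA, changed by -0.15 ± 0.18 (adjusted p = 0.684). In SP TTX these genes held 1.81 ± 2.32% and 5.09 ± 7.10% of the 2 h rise.

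In the same comparison 4 of the 4 excitatory neuron markers were called lower (median log2 -0.57, Camk2a -0.72 ± 0.09), and 3 of the 5 inhibitory neuron markers higher (median 0.33). Among the markers of astrocytes, oligodendrocyte lineage, microglia, fibroblasts and vessels, and dividing cells, 0 were called in either direction, and Map2 was the 1 of 5 neuron markers called lower (-0.34 ± 0.07). The part of the marker change in the fall of the 8 genes was not tested.

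**Figure D4:**
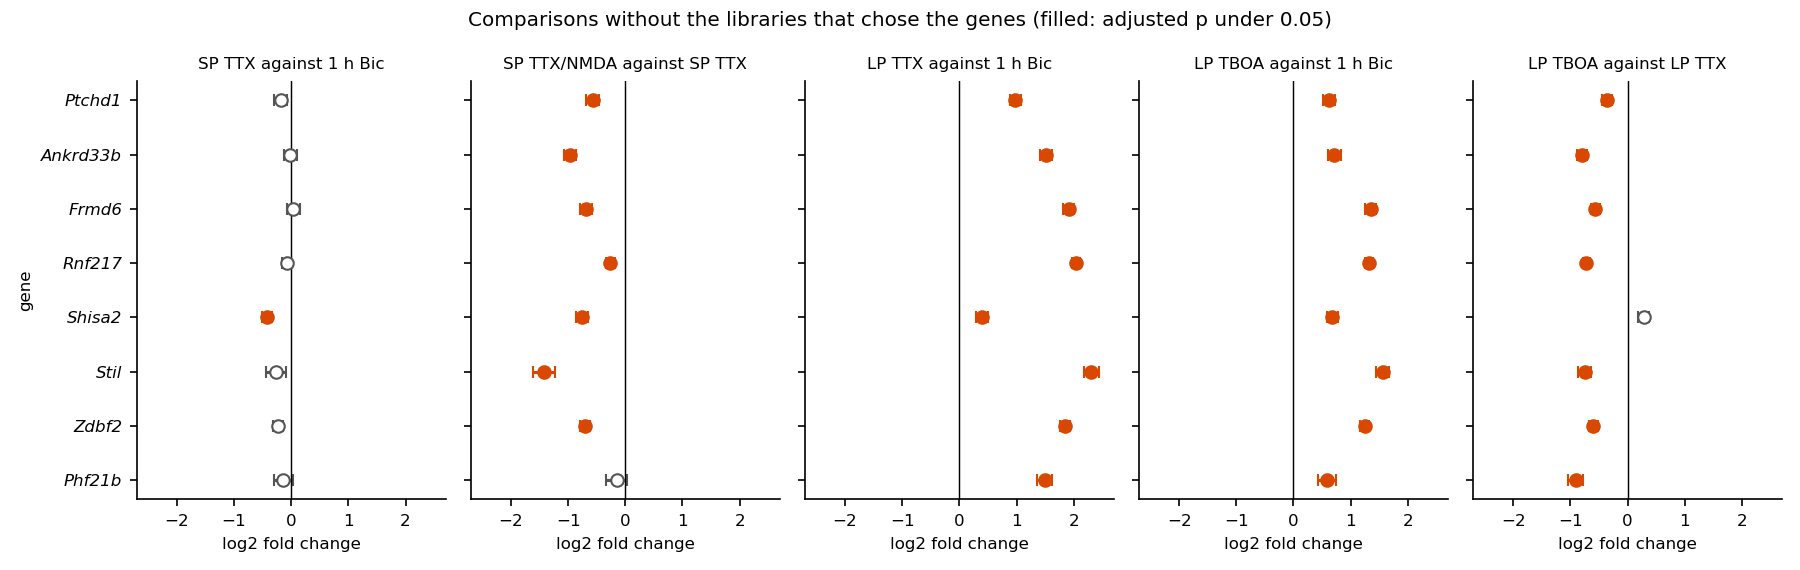
Log2 fold changes (points) with their standard errors (bars) of the 8 genes in 5 comparisons that use none of the libraries that chose the genes, each over 10 libraries. Filled points have an edgeR adjusted p under 0.05. From left to right, 1, 7, 8, 8 and 7 of the 8 points are filled, to the right of 0 in both panels against 1 h Bic of the long protocol and to its left in the others.

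Blocking AP firing for 0.5 h had little measurable effect. In the SP passive effect (SP TTX against 1 h Bic), 1 of the 8 genes was called lower, Shisa2, and 0 higher, where 0.252% of 31765 genes tested were called lower and 0.0157% higher. Shisa2 measured 18.03, 16.4, 14.2, 19.6 and 17.99 CPM after 1 h Bic and 13.8, 13.1, 12.2, 14.1 and 11.4 CPM in SP TTX, without overlap. Its log2 change was -0.42 ± 0.09 (edgeR adjusted p = 0.0261), and the adjusted p was 0.0968, 0.104 and 0.0855 without replicates 1, 7 and 8, 0.146 with low counts filtered and 0.203 with all 45 libraries in 1 fit. The other 7 lay between -0.26 ± 0.17 (Stil) and 0.04 ± 0.11 (Frmd6). Zdbf2, at -0.23 ± 0.09 (adjusted p = 0.879), was called without replicate 3 (adjusted p = 0.0327). It was also called with the preparation as a block (0.0100), but not once low counts were filtered as well (0.531). Of the 4 excitatory neuron markers, 0 were called.

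The SP total effect (SP TTX/NMDA against 1 h Bic) shares its libraries with both. Here 7 of the 8 genes were called lower and 0 higher (3.41% and 0.891% of 31414 tested), from -0.33 ± 0.08 for Rnf217 to -1.67 ± 0.17 for Stil, whose mean fell by 68.4%. Shisa2, lowered in both steps, fell from 17.2 ± 2.03 to 7.66 ± 0.43 CPM (-1.17 ± 0.10, edgeR adjusted p = 5.13e-11). Phf21b was lower in 5 of 5 preparations (-0.28 ± 0.17) but with an adjusted p of 0.475, and 0.0462 with the preparation as a block and low counts filtered. The 4 excitatory neuron markers were also called lower here (median -0.53) and in the next comparison (median -0.52). In each, 1 of 5 neuron markers was called lower too. In the next comparison 2 of 6 astrocyte markers (median 0.35) and 1 of 5 inhibitory neuron markers (median 0.25) were called higher. The part of these markers was not tested.

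Some levels ended below those at which NMDA was added. Against 0.5 h Bic, 3 of the 8 genes were called lower in SP TTX/NMDA (2.58% of 30883 tested) and 0 higher (0.628%). Ankrd33b measured 25.99, 22.7, 31.4, 28.6 and 29.9 CPM after 0.5 h Bic, above all SP TTX/NMDA libraries (15.2 to 21.2 CPM, -0.61 ± 0.10, edgeR adjusted p = 8.24e-05). Shisa2 changed by -0.55 ± 0.11 (adjusted p = 0.00255) and Zdbf2 by -0.34 ± 0.08 (adjusted p = 0.0103), the latter with 0.0504 and 0.0884 without replicates 3 and 7 and 0.1499 with all 45 libraries in 1 fit. With the preparation as a block and low counts filtered, 6 genes were called lower, adding Ptchd1 (-0.42, adjusted p = 0.00410), Frmd6 (-0.21, adjusted p = 0.0308) and Rnf217 (-0.24, adjusted p = 0.00158). Stil (-0.32 ± 0.21) and Phf21b (-0.23 ± 0.19) were not called in either fit.

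During the hour with TTX, in contrast, mRNA of the 8 genes went on rising. From 1 h Bic to LP TTX, 8 of the 8 genes were called higher, where 4.34% of 31856 genes tested were called higher, and their median log2 change was 1.68, against 0.02 over all genes tested. Rnf217 measured 45.1, 42.2, 53.1, 52.6 and 42.8 CPM after 1 h Bic and 191, 184, 206, 196 and 200.01 CPM in LP TTX (2.04 ± 0.07, edgeR adjusted p = 1.06e-22). It rose in 5 of 5 preparations, by 272.5 to 367.7%. Stil rose 4.96-fold, from 2.96, 3.01, 3.85, 3.88 and 4.35 CPM to 15.9, 22.7, 21.9, 15.2 and 14.5 CPM (2.31 ± 0.13, adjusted p = 1.50e-16). Frmd6 (1.92 ± 0.10), Zdbf2 (1.84 ± 0.09), Ankrd33b (1.51 ± 0.10), Phf21b (1.49 ± 0.13) and Ptchd1 (0.98 ± 0.10) rose without overlap. Shisa2 rose least, with overlapping libraries, from 17.2 ± 2.03 to 22.8 ± 4.24 CPM (0.40 ± 0.10, adjusted p = 0.00928). Of the 4 excitatory neuron markers, 0 were called in this comparison (median -0.04).

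With TBOA in place of TTX the 8 genes rose as well. From 1 h Bic to LP TBOA, 8 of the 8 genes were called higher (1.41% of 31654 tested, with 2.05% lower), by 0.59 ± 0.16 for Phf21b to 1.56 ± 0.12 for Stil. Frmd6 measured 12.002, 10.4, 12.7, 15.02 and 16.6 CPM after 1 h Bic and 32.1, 32.6, 34.1, 35.1 and 36.1 CPM in LP TBOA (1.35 ± 0.09, edgeR adjusted p = 1.62e-13). All of its LP TBOA libraries lay above all 1 h Bic libraries. Phf21b (2.94 to 4.84 against 3.99 to 7.63 CPM, adjusted p = 0.0196) overlapped and lost its call with low counts filtered (adjusted p = 0.0644) or with all 45 libraries in 1 fit (0.101). Of the 4 excitatory neuron markers, 1 was called lower (median -0.21).

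Compared with LP TTX directly, which shares libraries with the last 2 comparisons, LP TBOA gave lower levels of 7 of the 8 genes (3.50% of 32418 tested were called lower and 0.759% higher). Phf21b changed most (log2 -0.90 ± 0.13), at 3.99, 5.22, 4.94, 7.63 and 6.65 CPM against 9.31, 8.80, 11.3, 11.2 and 12.2 CPM (edgeR adjusted p = 6.70e-06). Ankrd33b (-0.80 ± 0.09), Stil (-0.75 ± 0.11), Rnf217 (-0.72 ± 0.06), Zdbf2 (-0.60 ± 0.07), Frmd6 (-0.56 ± 0.07) and Ptchd1 (-0.36 ± 0.09) were lower in 5 of 5 preparations, and Ptchd1 had an adjusted p of 0.00680, or 0.0611 without replicate 1. Shisa2 went the other way, at 28.2, 24.7, 18.8, 23.95 and 18.1 CPM in LP TTX and 28.02, 27.8, 31.2, 29.8 and 21.9 CPM in LP TBOA. Its change of 0.28 ± 0.10 was not called (adjusted p = 0.111), but was called with the preparation as a block and low counts filtered (0.0480) and without replicates 1 (0.00990), 3 (0.0488) and 8 (0.0182). The excitatory neuron markers had 0 of 4 called (median -0.15).

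Against 2 h Bic, whose libraries chose the genes, TBOA changed the mean by -18.6% (Zdbf2) to -42.2% (Phf21b). The libraries did not overlap in 7 of the 8 genes, the exception being Shisa2 (26.6 to 39.7 against 21.9 to 31.2 CPM). LP TTX/NMDA lay below LP TBOA in 5 of 5 preparations of every gene, with changes of -41.9% (Phf21b) to -65.2% (Ptchd1), and Phf21b was the gene with overlap (3.01 to 4.07 against 3.99 to 7.63 CPM).

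Ordered by mean level over the 9 conditions, part of the order was set by the choice of the genes, which took them as high after 2 h Bic and low in LP TTX/NMDA. LP TTX was the highest condition for 5 genes and 2 h Bic for 3 (Ptchd1, Frmd6 and Shisa2), and these overlapped in every gene. In Shisa2, LP TBOA stood between them and overlapped both. SP TTX/NMDA was the lowest condition for 6 genes, LP TTX/NMDA for Ptchd1 and control for Phf21b, each overlapping the next in order. LP TBOA was the third from the top in 7 genes and lay apart from LP TTX/NMDA or 1 h Bic beneath it except in Phf21b. Over the 45 libraries the Pearson r of log2 CPM between 2 of the 8 genes had a median of 0.888, from 0.723 (Shisa2 and Phf21b) to 0.967 (Frmd6 and Zdbf2), over libraries that share conditions, preparations and depth. These include the 15 libraries that chose the genes, so a high r among them follows in part from the choice.

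Patterns were compared over 13589 genes with a mean of at least 1 CPM and reads in every library, the 8 included. The other genes most like the mean pattern of the 8, over libraries that include the ones used to choose them, were Slc2a3 (Pearson r of log2 CPM 0.985 over 45 libraries), Pcsk1 (0.980), Homer1 (0.976), Arih2 (0.976), Ciapin1 (0.974), Sntb2 (0.973), Peli1 (0.972), Nrn1 (0.972), Inhba (0.969) and Tsc22d2 (0.968). Slc2a3 is the neuronal glucose transporter, Homer1 a postsynaptic scaffold, and Inhba the activin A subunit. Single genes had other neighbours. Shisa2 was most like the protocadherin Pcdh8 (0.958), the ephrin Efnb2 (0.941) and Csrnp1 (0.936), Stil like Arl5b (0.976), Fam107b (0.972) and the AP-1 factor Fosl2 (0.972), and Phf21b like Boc (0.950), Phf13 (0.931) and the CREB-regulating kinase Sik2 (0.930). Ptchd1 was most like Rap2a (0.952), Armcx4 (0.950) and Sik2 (0.947), Ankrd33b like Sntb2, Nrn1 (0.960 each) and Ranbp2 (0.959), Frmd6 like Slc2a3 (0.984), Homer1 (0.979) and Arih2 (0.978), Rnf217 like Btaf1 (0.983), Peli1 (0.982) and Pcsk1 (0.979), and Zdbf2 like Homer1 (0.985), Btaf1 (0.977) and Slc2a3 (0.973).

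Most relatives and partners of the 8 genes did not pass the test. Over 9 lists with 131 genes tested, the SP active effect lowered 13 and raised 2, where 3.32% of all genes were called lower and 0.956% higher. Those shares cover 32229 genes with as little as 1 read. With low counts filtered, 1408 of 15705 genes were called in either direction. Of the 13 centriole duplication partners of Stil and the 15 PHD finger and LSD1 complex relatives of Phf21b, 0 were called. Of 10 Shisa relatives 2 fell, Shisa6, an AMPA receptor auxiliary protein (218 ± 10.3 to 142 ± 18.2 CPM, -0.63 ± 0.08, edgeR adjusted p = 5.08e-07), and Shisal1 (-0.39 ± 0.08). Of 17 FERM domain relatives 3 fell, the Hippo regulator Nf2 (-0.37 ± 0.06), Frmpd3 (-0.37 ± 0.08) and Frmpd4 (-0.37 ± 0.08), and of 18 Hippo pathway genes 1 fell, the kinase Stk4 (-0.28 ± 0.06).

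Of 13 RING-between-RING ligases 2 fell, Rnf19a (-0.45 ± 0.07) and Ankib1 (-0.24 ± 0.07), of 9 Patched and Dispatched relatives 1, Disp3 (-0.42 ± 0.11), and of 10 ankyrin repeat relatives 1, Ankrd52 (-0.35 ± 0.06). Among 26 imprinted genes listed with Zdbf2, 3 fell, led by Mest (59.2 ± 5.14 to 39.5 ± 2.69 CPM, -0.59 ± 0.07), and 2 rose, the non-coding Kcnq1ot1 (0.60 ± 0.13) and Mirg (0.53 ± 0.09). From 1 h Bic to LP TTX, in which 8 of the 8 genes rose, 19 of the 131 were called higher and 9 lower, against 4.34% and 2.85% of all genes, and 7 of the 19 were imprinted genes. With low counts filtered, 2454 of 15540 genes were called in either direction there.

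In the longest annotated 3′UTR (GENCODE M21), the pentamer ATTTA, part of the AU-rich elements known for speeding mRNA decay, stood 24 times in Zdbf2 (4631 bases) and 32 times in Rnf217 (9465 bases). Per kb these are 5.18 and 3.38, at the percentiles 95.7 and 84.9 of 11759 expressed protein-coding genes, whose median was 1.45. The other 6 had 0.541 (Phf21b) to 2.18 (Ptchd1) per kb, at percentiles 27.6 to 66.8. mRNA decay was not measured.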

How the data were processed

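Poly-A RNA of 45 libraries (9 conditions, 5 culture preparations) was sequenced single-end for 75 cycles. The authors aligned the reads with STAR 2.5.4b to GRCm38 (Ensembl 94) and deposited raw counts per gene from featureCounts 1.6.5, counted by strand and without multi-mapping or multi-overlapping reads. Reads shared with near-identical copies are therefore missing from these values.

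Conditions were taken from the labels. Comparisons used the 10 libraries of 2 conditions, genes with at least 1 read, TMM scaling and edgeR 4.0.16 (quasi-likelihood test, R 4.3.3), with calls at a Benjamini-Hochberg adjusted p under 0.05. Tested on simulated data, the fit recovered the changes put in, but where variance differed from gene to gene, more calls were false than the threshold allows, so calls near it are less certain. Alternatives were the preparation as a block, with and without filterByExpr, filterByExpr alone, DESeq2 1.42.0 (the authors' tool), its size factors, all 45 libraries in 1 fit, and leaving out each preparation. Each preparation number marks a shared culture preparation, and same-numbered libraries deviated together (mean r 0.325 to 0.598 per comparison over 13592 genes, lowest single pair -0.266).

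The genes and lists were chosen with earlier results of these data known. Besides the 8 genes, the text names list members called in the SP active effect (at most 3 a list), the genes most alike in pattern, and those nearest the 60% limit. Depth was 11316580 to 81129276 reads per library, so genes such as Stil, with 10 to 67 reads in controls, are less precise there. Positions are from GENCODE M21 and promoters from RefSeq, both of the build used for alignment.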

Additional observations from a re-analysis of the deposited data

Results flagged for a closer look

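In 72 groups of 5 libraries (8 genes in 9 conditions), 6 had 1 library far from the other 4, with a gap of more than 0.71 of the group's range. Chance alone flags about 1 in 20 such groups. Ptchd1 measured 3.40 CPM in LP TTX/NMDA of preparation 1, where the others had 4.66 to 5.01 CPM. Frmd6 measured 60.4 CPM in LP TTX of preparation 1, against 47.1 to 48.9 CPM. Rnf217 stood at 125 CPM in LP TBOA of preparation 7, against 115 to 118 CPM. Shisa2 stood at 13.9 CPM in LP TTX/NMDA of preparation 3, against 11.0 to 11.4 CPM. Phf21b was high in preparation 7 under both NMDA protocols, at 4.72 CPM in SP TTX/NMDA (others 2.49 to 2.73 CPM) and 4.07 CPM in LP TTX/NMDA (others 3.01 to 3.22 CPM). In the control of preparation 7, Phf21b was also the highest of the 5, at 4.66 CPM.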

How the results depend on the processing

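Of 616 log2 fold changes of single genes under the alternatives, 581 kept their side of the threshold. Another 19 passed it only under the alternative and 16 no longer passed it. Of the changes called in either fit, 0 reversed. Some small changes that were not called did change sign, such as Frmd6 in the SP passive effect (0.04, and -0.03 without replicate 3). The 8 genes stayed more than 60% below 2 h Bic with DESeq2 size factors, with changes averaged within preparations, and without any single preparation. This value chose the genes, and the other alternatives were not run for it. In the SP passive effect, the count of called genes went from 1 to 2 with the replicate block, to 0 with filterByExpr and to 0 with all 45 libraries in 1 fit, and lay between 0 and 2 when a preparation was left out. From 0.5 h Bic to SP TTX/NMDA it went from 3 to 6 with the replicate block, to 6 with the replicate block and filterByExpr and to 5 with DESeq2, and lay between 2 and 3 without single preparations. The block also moved the number of all genes called, in the SP active effect from 1379 to 2548 with filterByExpr and 3103 without it, while 7 of the 8 genes were called in each. With filterByExpr alone, with all 45 libraries in 1 fit, and without replicates 1, 3 or 7, 6 were called there, Rnf217 being lost. From 0.5 h Bic to SP TTX/NMDA, the fit of all 45 libraries also called 3 genes, but with Ptchd1 in place of Zdbf2. With the block and filterByExpr, calls of the 8 genes changed only for Phf21b (SP total), Ptchd1, Frmd6 and Rnf217 (0.5 h Bic to SP TTX/NMDA) and Shisa2 (LP TBOA against LP TTX). The causes were not tested. Low counts limit Stil and Phf21b, which had as few as 10 and 26 reads in a library.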
